A study of Rattus norvegicus with 12 samples.

Results

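Neuroendocrine cells store peptides in dense-core granules, and 10 rat genes tied to that pathway were described here: Npy, Vgf, Chga, Chgb, Scg2, Scg5, Pcsk1, Cpe, Ptprn and Septin5. They were taken by gene name from the array annotation (Septin5 is listed there under its older name Sept5), and every probe of each was used, 12 probes for the 10 genes out of 45598 distinct probes on the array. Npy, Ptprn and Septin5 were chosen by their measured values, their differences between the genotypes in earlier work on these arrays, and the others because their products are granule cargo or granule enzymes. The values of all 10 genes between the genotypes are therefore given as a description, and calls are named for these genes only because they entered the choice.

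RNA was measured in 7 cultures of VDAC1 KO cells and 5 cultures of WT cells of N27, an immortalised rat dopaminergic neural line, with no treatment named in the labels. In the VDAC1 KO cells the voltage-dependent anion channel 1, a pore of the outer mitochondrial membrane, had been removed with CRISPR. The sources used here do not say whether the KO cultures came from 1 clone or whether the cultures of a group were grown independently, so p-values measure only the spread between these cultures. Cultures go by the sample numbers of the labels, and values per array stand in the order KO 1 to KO 7 and then WT 3, WT 5, WT 6, WT 7, WT 8.

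Granule cargo such as chromogranins and secretogranins condenses in the trans-Golgi network, propeptides are cut there and in the maturing granule by prohormone convertases and trimmed by carboxypeptidase E, and the contents are released when calcium triggers fusion with the plasma membrane. Neuropeptide Y (NPY) is one of the peptides released in this way by sympathetic and brain neurons. PTPRN, also called IA-2, is a transmembrane protein of the granule membrane, and SEPTIN5 is a filament-forming GTPase found at vesicles of the presynaptic terminal.

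The arrays carry probes of 60 bases. Shown here are the sequences of the 4 probes that gave a measurable signal, since each result on those genes rests on what that probe reads. For Npy and Vgf the last 30 bases are given, with the letters of the polyadenylation signal AATAAA in capitals. That hexamer was held by 4 of the 12 member probes, those of Npy, Chgb and Scg5 and 1 of the 2 for Vgf. For Ptprn and Septin5 the whole probe is given in lower case.
Npy: tatatgtgtgtttaAATAAAgtatcatgca
Vgf: atagttttgctaagaAATAAAagtgactat
Ptprn: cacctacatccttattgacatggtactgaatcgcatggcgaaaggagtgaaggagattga
Septin5: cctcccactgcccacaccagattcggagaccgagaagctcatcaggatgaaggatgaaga
The array files place the whole Npy probe at chr4:78045125-78045184 and the Vgf probe at chr12:20906265-20906324, both on the plus strand of build rn4. The Septin5 probe lies at chr11:84368484-84368543 on the plus strand. The Ptprn probe is placed at chr9:74528459-74528683 on the minus strand, a span of 225 bases for 60 bases of probe, so its placement skips genomic bases, as a probe across a splice junction does.

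The 12 arrays lay on 3 slides, each with both genotypes. Brightness differed between them, with a 75th percentile of the processed signal from 120.1 to 691.8, and the scanner software flagged 42.3% to 53.8% of an array's spots as well above background. Levels below are log2 signal minus the array's 75th percentile, so that a negative value is a probe dimmer than that percentile, and a probe counts as well above background on an array where at least 0.5 of its spots do. The probe for the targeted gene Vdac1 read 1.20 to 2.68 in the KO arrays and 3.07 to 3.61 in the WT arrays, lower in each of the 7. Its KO readings separated by sample number without overlap. The lowest reading among KO 1 to KO 4 was 2.26, on KO 4. Among KO 5 to KO 7 the highest was 1.53, on KO 6. Every KO reading of Vdac1 still lay above the array's 75th percentile. Of 11 dopaminergic neuron markers, Th and Aldh1a1 were well above background on all 12 arrays, while Ddc, Slc6a3, Foxa2, Lmx1a and En1 were so on none. The linear levels of that list, relative to the 75th percentile, summed to between 0.695 and 1.35 in the KO and between 0.707 and 1.28 in the WT. Th and Aldh1a1 were the brightest and carried most of that sum, so it shows little of the other markers. Microglia markers summed to between 0.512 and 1.31 in the KO and between 0.830 and 1.27 in the WT. Fibroblast markers summed to between 0.580 and 1.12 in the KO and between 0.596 and 0.975 in the WT. The size of the sum therefore does not set the dopaminergic list apart. The log2 difference, KO minus WT, was 0.17 for Th, 0.63 for Aldh1a1, -0.080 for Slc18a2 and -1.19 for Nr4a2 (limma adjusted p = 0.143). Nr4a2 was well above background on 1 of 7 KO and 4 of 5 WT arrays. Of 10 general neuron markers 7 were well above background on no array, among them Snap25 and Map2. Of 8 chromaffin cell markers 5 were well above background on none, among them Dbh, Phox2a, Slc18a1 and Chgb. Of the others, Th was so on all 12 arrays, Pnmt on 8 (6 KO and 2 WT) and Chga on 1.

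Of the 10 genes 4, Chgb, Scg2, Scg5 and Pcsk1, were well above background on no array of either genotype. Probes for 4 of the 10 genes, Npy, Ptprn, Septin5 and Vgf, reached that state on 5 or more of the 12 arrays, the minimum for a gene to be tested. The other 6 genes were not tested. Of the 12 probes, 6 were well above background on no array, and 2, for Chga and Cpe, on 1 array each. The heat map of signal above background shows this division.

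**Figure D1:**
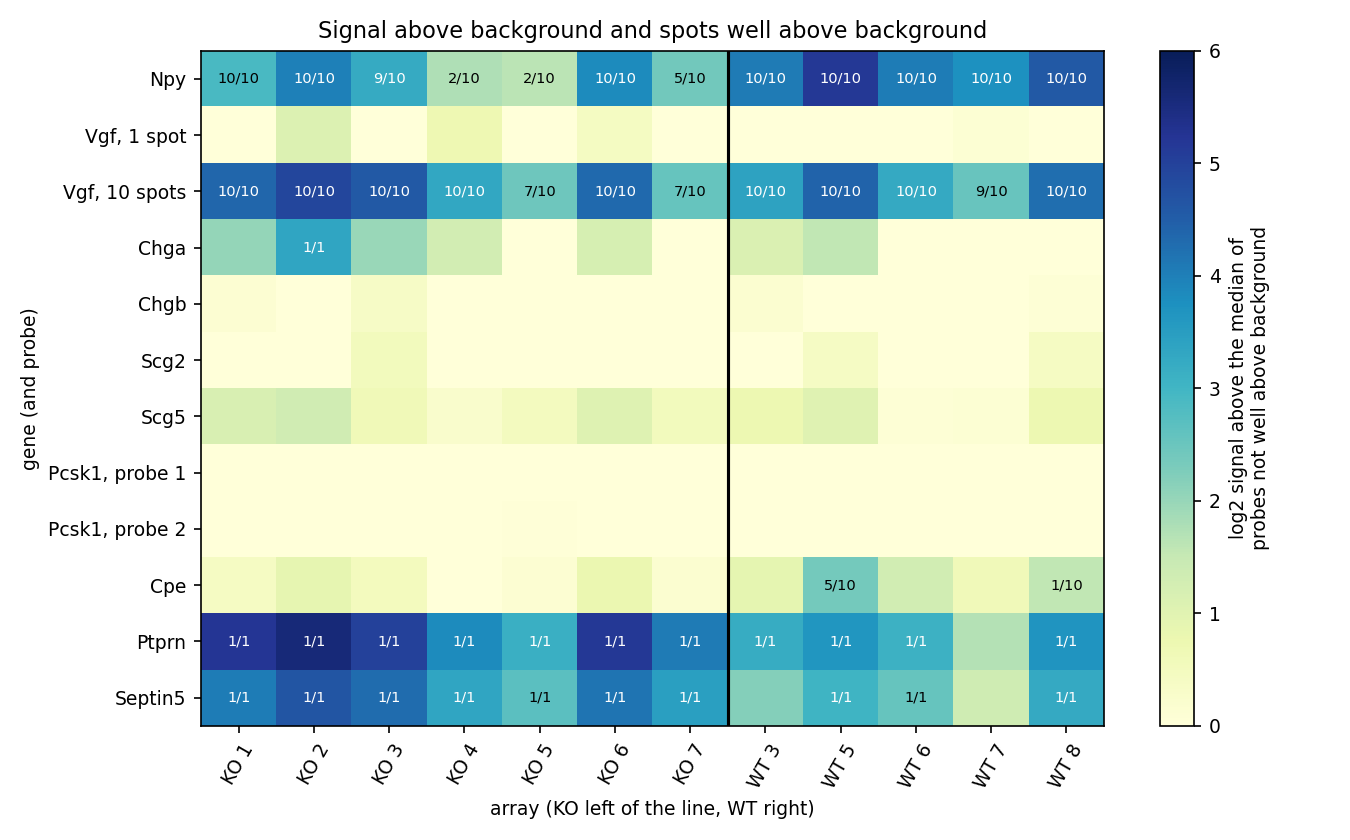
Colour gives the log2 signal of each member probe above the median of that array's probes that were not well above background, with values below 0 drawn as 0, for the 7 KO arrays (left of the line) and the 5 WT arrays. Numbers in a cell are spots well above background over spots printed, for cells with at least 1. Npy, the 10-spot Vgf probe, Ptprn and Septin5 carry most of the dark cells, Chga reaches 3.35 on KO 2 and Cpe 2.37 on WT 5, and both Pcsk1 probes (probe 1 at the lower coordinate) stay at background on every array.

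Npy, which encodes the precursor of neuropeptide Y, was lower in the KO. Its probe, printed in 10 spots per array, read -3.64, -3.33, -3.46, -4.02, -4.27, -3.77 and -3.76 in KO 1 to KO 7. In the 5 WT arrays it read -2.50, -1.82, -2.11, -1.86 and -2.26. The groups did not overlap, with the highest KO array, KO 2, still below WT 3, the lowest WT array. The mean was -3.75 ± 0.32 (SD, n = 7) in the KO and -2.11 ± 0.28 (SD, n = 5) in the WT, a log2 difference of -1.64 (SE 0.18), or 3.11-fold lower in the KO.

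The KO signal of Npy lay closer to background than the WT signal. In the KO 48 of 70 Npy spots were well above background, against 50 of 50 in the WT. On KO 4 and KO 5, both on slide 3 among the dimmer arrays, 2 of 10 spots were, and the median processed signal was 8.61 and 7.80 units. WT 6 and WT 7 shared that slide, and all 10 of their spots were well above background at 45.4 and 34.5 units. The SD between the 10 spots of 1 array ran from 0.10 to 0.63, with its highest value on KO 5. Within slides 1, 2 and 3 the log2 difference of Npy was -1.38, -1.66 and -2.15. It was -1.92 in sample numbers 5 to 8 alone and -1.12 in numbers 1 to 4, which hold 1 WT array.

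Ptprn, which encodes the granule membrane protein IA-2, was higher in the KO. Its single spot read -1.33, -1.75, -1.69, -1.92, -2.76, -2.44 and -2.10 in KO 1 to KO 7, and it was well above background on all 7. In the 5 WT arrays it read -3.35, -3.34, -3.08, -3.91 and -3.18. All KO arrays lay above all WT arrays, the nearest being KO 5 and WT 6, and WT 7 was the array where Ptprn was not well above background. The mean was -2.0 ± 0.48 (SD, n = 7) in the KO and -3.37 ± 0.32 (SD, n = 5) in the WT, a log2 difference of 1.37 (SE 0.24), or 2.59-fold higher in the KO. The Ptprn difference was 1.00, 1.75 and 1.15 within slides 1, 2 and 3. It was smaller, at 0.94, in sample numbers 5 to 8 alone, and 1.68 in numbers 1 to 4, which hold 1 WT array.

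Septin5, the gene of the vesicle-associated septin, had the same direction as Ptprn. It read -2.49, -2.68, -2.41, -2.43, -3.20, -3.45 and -2.71 in KO 1 to KO 7. In the 5 WT arrays it read -4.36, -3.94, -3.62, -4.25 and -3.60. The groups did not overlap, but KO 6 and WT 8 were only a little apart, and Septin5 was not well above background in WT 3 and WT 7. The mean was -2.77 ± 0.41 (SD, n = 7) in the KO and -3.95 ± 0.35 (SD, n = 5) in the WT, a log2 difference of 1.19 (SE 0.22), or 2.28-fold higher in the KO. Within slides 1, 2 and 3 the Septin5 difference was 0.90, 1.41 and 1.12. It was smaller, at 0.73, in sample numbers 5 to 8 alone, and 1.86 in numbers 1 to 4, which hold 1 WT array.

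Vgf, the gene of a nerve growth factor-inducible granule protein that is cut into several peptides, was well above background on every array at its 10-spot probe and differed between the genotypes by less than their spread. It read -2.16, -2.41, -2.10, -2.48, -3.43, -3.27 and -3.63 in KO 1 to KO 7. In the 5 WT arrays it read -3.18, -2.56, -2.92, -3.09 and -2.58. The WT values fell inside the KO range, with every one below KO 1 to KO 4 and above KO 5 to KO 7. The mean was -2.78 ± 0.64 (SD, n = 7) in the KO and -2.87 ± 0.29 (SD, n = 5) in the WT, a log2 difference of 0.083 (SE 0.28). The sign of the Vgf difference turned with the arrays used: it was -0.57, 0.33 and 0.051 within slides 1, 2 and 3, and -0.66 in sample numbers 5 to 8 alone. The second Vgf probe, at chr12:20905401-20905460 on rn4 and printed once, was well above background on none of the 12 arrays, with 2.43 to 9.18 units of processed signal.

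**Figure D2:**
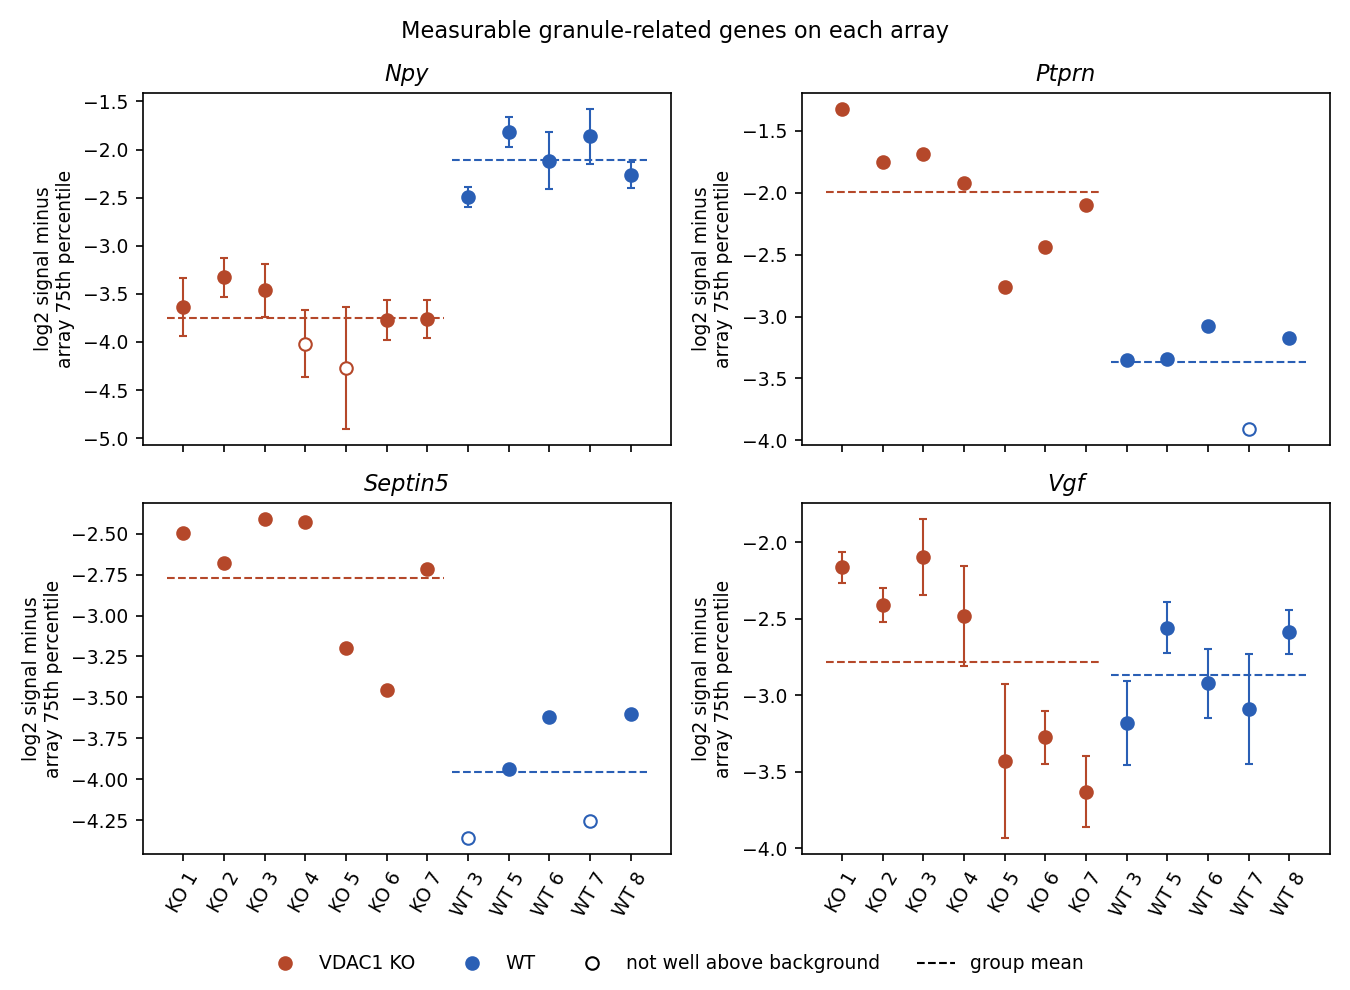
Each panel gives the log2 signal of 1 gene relative to the array's 75th percentile (vertical axis) on the 7 KO arrays and the 5 WT arrays (horizontal axis). Points are arrays, open where the probe was not well above background, bars are the SD between the 10 spots of Npy and Vgf (Ptprn and Septin5 have 1 spot), and dashed lines are group means. All KO arrays lie below all WT arrays for Npy and above them for Ptprn and Septin5, while for Vgf KO 1 to KO 4 lie above and KO 5 to KO 7 below the WT arrays.

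Of the 4 genes tested, 3 were among the calls of limma in the fit over all 14742 features (adjusted p under 0.05 after Benjamini-Hochberg adjustment), Ptprn and Septin5 as higher and Npy as lower, and over all features 1.09% were called, 0.699% as higher and 0.393% as lower. In 2 of the 4 every KO array was above every WT array, as in 1.85% of all features, and in 1 every KO array was below, as in 0.889%. Npy, Ptprn and Septin5 were chosen for these very values, so nothing is read from these counts. With normexp background correction limma called none of the 3, at log2 differences of -0.69 for Npy, 0.48 for Ptprn and 0.25 for Septin5.

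The KO cultures themselves fell apart by sample number at some of these genes. KO 1 to KO 3 lay on slide 2, KO 4 and KO 5 on slide 3, and KO 6 and KO 7 on slide 1. Sample number and slide can therefore not be fully told apart among the KO arrays. Vgf averaged -2.29 ± 0.19 (SD, n = 4) in KO 1 to KO 4 and -3.45 ± 0.18 (SD, n = 3) in KO 5 to KO 7, a log2 difference of 1.16. WT 3, the WT culture numbered with the first set, read -3.18. Ptprn averaged -1.67 ± 0.25 (SD, n = 4) in KO 1 to KO 4 and -2.43 ± 0.33 (SD, n = 3) in KO 5 to KO 7. Septin5 had means of -2.50 ± 0.12 (SD, n = 4) and -3.12 ± 0.38 (SD, n = 3) for the first and second set. In 3 of the 4 tested genes, Vgf, Ptprn and Septin5, each of KO 1 to KO 4 lay above each of KO 5 to KO 7. The probe of the targeted gene Vdac1 had this order too. The same held for 17.2% of all features, each of KO 1 to KO 4 lay below in another 19.9%, and together 37.1% showed no overlap, so that a split of this kind was common on these arrays.

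Of the granule cargo genes that were not tested, Chga showed the most on single arrays. It encodes chromogranin A, an acidic protein that helps condense granule contents. Its processed signal was 15.1, 43.7, 13.5, 6.31, 2.35, 7.04 and 2.88 units in the 7 KO arrays, against 6.20, 10.5, 2.62, 2.20 and 3.17 units in the 5 WT arrays. Only on KO 2 was it well above background, and the 4 highest values relative to the 75th percentile were those of KO 1 to KO 4, between -4.70 and -3.98. No fold is given for Chga, since 6 of the 7 KO arrays and all 5 WT arrays were not well above background. The log2 difference of Chga was 0.76 over all arrays and -0.13 both within slide 1 and in sample numbers 5 to 8 alone, so its direction rested on KO 1 to KO 4.

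Chgb and Scg2, the genes of chromogranin B and secretogranin II, which are main cargo proteins of granules in adrenal and neuronal cells, stayed at background. The 10-spot Chgb probe had a median processed signal of 2.34 to 4.14 units over the 7 KO arrays and 2.38 to 3.42 units over the 5 WT arrays, with 0 of 70 and 0 of 50 spots well above background. Scg2, in 2 spots, had 2.28 to 5.04 units in the KO and 2.21 to 5.15 units in the WT. Neither gene was well above background on any array of either genotype, so no fold is given. On the scale relative to the 75th percentile such probes move with array brightness: Chgb read -7.60 on KO 6 and -7.37 on KO 2, the 2 brightest arrays, and -5.62 on WT 7, the dimmest.

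The member genes of granule processing, Pcsk1, Scg5 and Cpe, were likewise dim. Pcsk1, the gene of prohormone convertase 1, which cuts propeptides at paired basic residues, had 2.28 to 3.69 units in the KO and 2.29 to 3.01 units in the WT at 1 probe and 2.38 to 3.94 and 2.24 to 3.21 units at the other. Scg5, the gene of 7B2, a chaperone of prohormone convertase 2, had a median signal of 2.51 to 10.8 units in the KO and 2.65 to 8.59 units in the WT, with 0 of 70 and 0 of 50 spots well above background. Neither gene was well above background on any array. For Scg5 the 10-spot mean still lay 0.25 to 1.33 above the array's background median in the KO and 0.09 to 1.03 above it in the WT, on the log2 scale.

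Cpe, the gene of carboxypeptidase E, gave lower readings in the KO, at a level near background. Its 10-spot probe read -6.13, -6.44, -6.18, -5.78, -5.75, -6.83 and -5.99 in the 7 KO arrays, against -5.66, -4.61, -4.85, -5.02 and -5.29 in the 5 WT arrays. The groups did not overlap, though KO 5 and WT 3 differed by less than the SD between the spots of either array. In the KO 0 of 70 spots were well above background, against 6 of 50 in the WT, 5 of them on WT 5 and 1 on WT 8. Above the array's background median Cpe lay between -0.012 and 0.89 in the KO and between 0.59 and 2.37 in the WT, ranges that do overlap. That overlap was not peculiar to Cpe, since on this scale the groups of Npy, Ptprn and Septin5 overlapped too. Npy, lower in the KO, lay at 3.84 on KO 6 and 3.75 on WT 7. Ptprn, higher in the KO, lay at 3.13 on KO 5 and 3.67 on WT 8, and Septin5 at 2.69 and 3.25 on the same arrays. The log2 difference of Cpe was -1.07, and no fold is given, since 1 of the 5 WT arrays and none of the KO arrays was well above background. The gene did not enter the fit over all features.

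**Figure D3:**
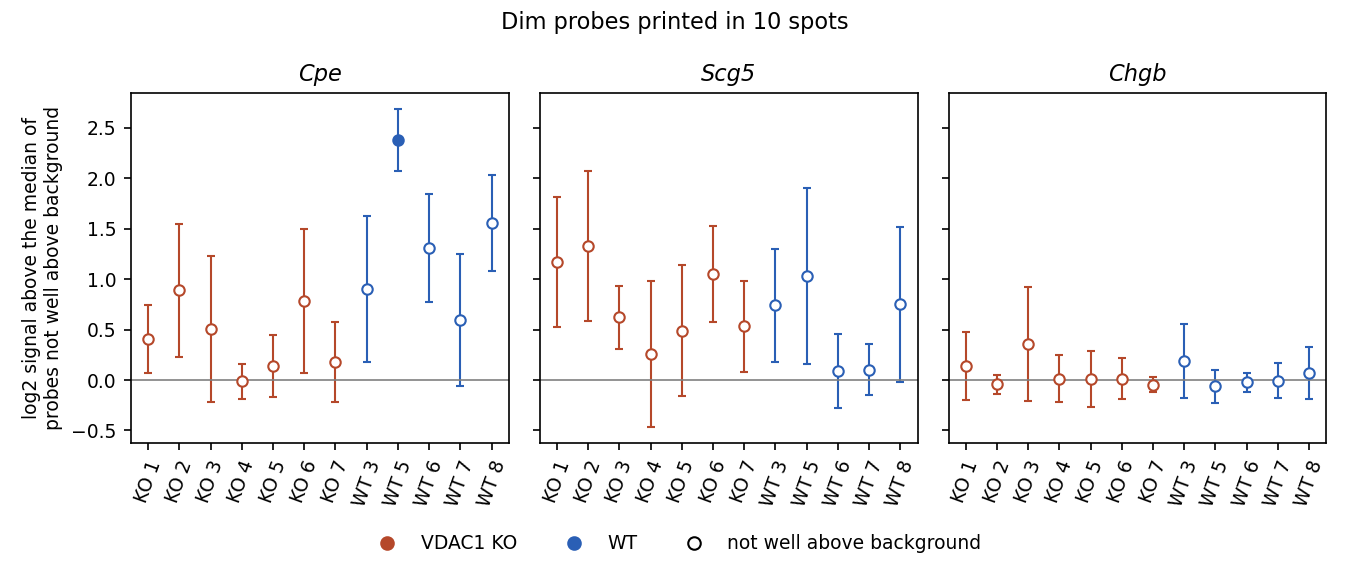
Log2 signal above the median of the array's probes that were not well above background (vertical axis) for 3 dim probes printed in 10 spots, on the 7 KO arrays and the 5 WT arrays. Points are means over spots, bars are the SD between spots, and filled points are arrays where the probe was well above background. Cpe on WT 5 is the filled point, Scg5 lies a little above 0 in both genotypes, and Chgb lies at 0.

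Many of the other genes looked at were likewise dim, and none of them was called. They came from 5 lists, of granule processing, granule fusion, neuropeptide and NPY receptor, septin and transcription regulator genes. Of these 90 genes 88 had a probe. At the probe that stood for the gene, 42 were well above background on no array and 36 entered the fit. The rest were well above background on too few arrays to be tested. Over these 36, limma called 0 higher and 0 lower, while an unadjusted p under 0.05 was reached by 2 that were higher and 7 that were lower, and 13 of 36 differences were positive. Over all 14742 features 161 were called, an unadjusted p under 0.05 was reached by 1379 that were higher and 919 that were lower, and 8145 differences were positive. The lists below have 2 to 14 tested genes each, and nothing is read from their counts beside these. The median log2 difference of the 36 genes was -0.13, beside 0.040 over all features. These lists were drawn up with earlier results of these arrays known.

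Among 14 genes of cargo and processing, Scg3, Pcsk1n, Pcsk2 and Dbh were well above background on none of the arrays. Ptprn2, the gene of phogrin and closest relative of Ptprn, was well above background on all 12 and differed by -0.19 (SE 0.20, limma adjusted p = 0.702). The ubiquitous convertase genes Furin and Pcsk7 differed by -0.14 and -0.038. Pam, whose enzyme amidates the ends of peptides such as NPY, had the smallest p of that list, with -0.60 ± 0.15 (SD, n = 7) in the KO and -0.30 ± 0.12 (SD, n = 5) in the WT, a difference of -0.29 (SE 0.12, limma adjusted p = 0.246). A second Pam probe, well above background on 7 arrays, differed by -1.03. In this list 0 of 6 tested genes were called (1 lower at unadjusted p under 0.05), with a median of -0.13.

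Of 30 genes of granule docking and fusion 14 were tested and 0 called by limma (unadjusted p under 0.05 in 1 higher and 3 lower), with a median of 0.054. The neuronal forms Snap25, Syt4, Rab3a and Unc13a were well above background on no array. Others found in neurons, Stx1a, Vamp2 and Cplx2, were so on all 12, as were the widely expressed Snap23, Vamp3 and Nsf. Detection therefore did not divide the list by neuronal form. Sytl4, the gene of granuphilin, a granule docking protein, differed by -0.61 (SE 0.21, limma adjusted p = 0.186), and Napa, an adaptor in the recycling of fusion complexes, by 0.44 (SE 0.16, limma adjusted p = 0.208).

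Among 23 neuropeptide and NPY receptor genes 17 were well above background on no array, among them the receptor genes Npy1r, Npy2r, Npy4r and Npy5r and the gene Dpp4, whose protease trims NPY. Cck and Pomc, 2 other propeptide genes, were the ones tested, and limma called neither (1 lower at unadjusted p under 0.05), with a median of -0.39. Cck read -4.11, -3.81, -3.89, -4.17, -3.00, -2.76 and -3.05 in the 7 KO arrays, against -3.51, -2.59, -2.91, -3.07 and -2.55 in the 5 WT arrays. Its low KO values were those of KO 1 to KO 4. The difference was -0.62 (SE 0.28, limma adjusted p = 0.304), and the Cck difference was 0.12 within slide 1, -0.60 within slide 3 and -0.16 in sample numbers 5 to 8 alone. Against WT 5 as the one WT array of slide 2 it was -1.34 and passed (limma adjusted p = 0.0230), and in numbers 1 to 4, with WT 3 as the one WT array, it was -0.49.

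The differences of the other septins lay on both sides of 0. Of 8 tested, 3 had a positive and 5 a negative difference, with a median of -0.14, and limma called 0 (unadjusted p under 0.05 in 1 higher and 1 lower). Septin4 was the nearest to a call, with -0.73 ± 0.31 (SD, n = 7) in the KO and -1.35 ± 0.29 (SD, n = 5) in the WT, a difference of 0.62 (SE 0.18, limma adjusted p = 0.109). A second Septin4 probe differed by 0.67, and with the range of the sample numbers as a block (1 to 4, 5 to 8) the Septin4 difference was 0.78 and passed (limma adjusted p = 0.0118). In sample numbers 5 to 8 alone it was 0.89 and passed (limma adjusted p = 0.0428), and within slide 2, which holds 1 WT array, it was 0.12. Septin10 differed by -0.56 (SE 0.19, limma adjusted p = 0.163), Septin2 by 0.14 and Septin7 by -0.25.

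Rest, the gene of a repressor that keeps neuronal genes silent outside neurons, was well above background on all 12 arrays and differed by -0.15 (SE 0.12, limma adjusted p = 0.586). Its corepressor genes Rcor1 and Rcor2 were measured on all 12 too and differed by -0.33 and 0.18. Neurod1 and Phox2a, activators of neuronal and neuroendocrine programs, were well above background on no array. Of the 11 regulators listed 6 were tested, with a median of -0.17, and limma called 0 (1 lower at unadjusted p under 0.05). Crem, of the family that binds cyclic AMP response elements, differed by -0.43 (SE 0.17, limma adjusted p = 0.226). The Crem difference was -0.78 in sample numbers 5 to 8 alone, where it passed (limma adjusted p = 0.0319), and 0.18 in numbers 1 to 4, which hold 1 WT array. Its other probes with signal on at least 5 arrays differed by -0.17, 0.22 and -0.064, so they did not share 1 direction.

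**Figure D4:**
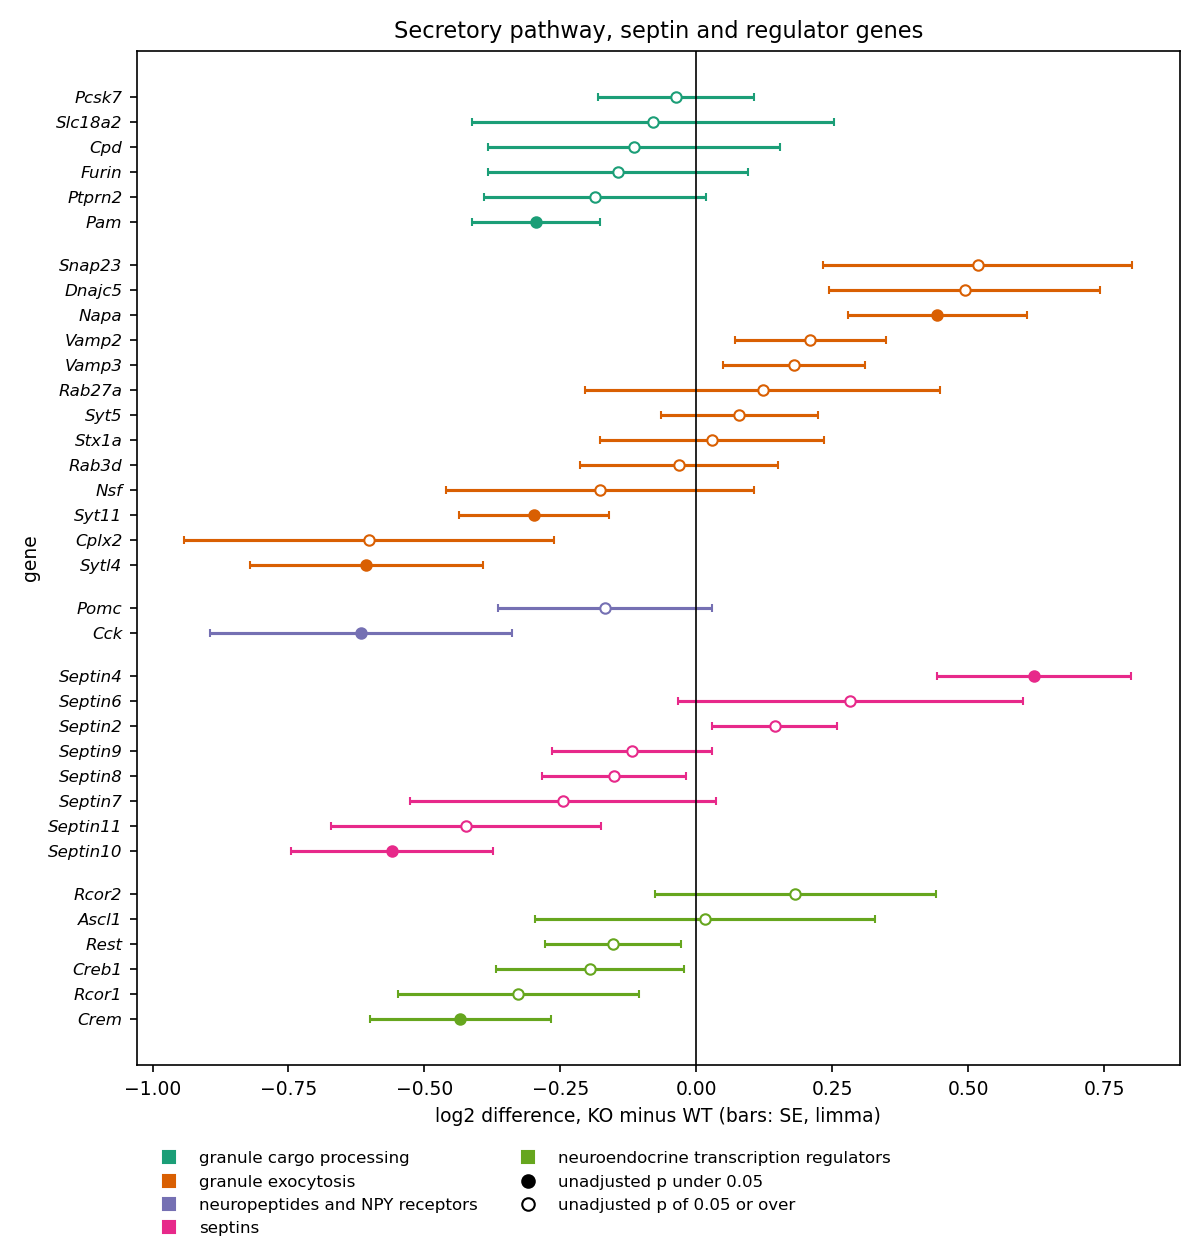
Log2 difference, KO minus WT (horizontal axis), for the list genes that were tested (vertical axis, 1 of the 36 not shown), coloured by list, with bars for limma's SE and filled points for unadjusted p under 0.05. The filled points lie on both sides of 0, from Septin4 at 0.62 to Cck at -0.62, and limma called 0 of the 36.

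The cyclic AMP response element, TGACGTCA, which reads alike on both strands, was looked for in the promoters of the members, since Vgf and Scg2 are textbook targets of this element and stood at opposite ends here, Vgf being measured on all 12 arrays and Scg2 on none. RefSeq promoters on build GRCr8, from 250 bases before to 50 after the start, were matched for 7 of the 10 members. Both Vgf and Scg2 held the 8 letters, as did 1.83% of the 33469 promoters of that table, and those of Npy, Ptprn, Chgb, Scg5 and Cpe did not. The motif, in capitals, began 90 bases before the start of Vgf and 123 before that of Scg2, and 100 bases around it are given for each.
Vgf: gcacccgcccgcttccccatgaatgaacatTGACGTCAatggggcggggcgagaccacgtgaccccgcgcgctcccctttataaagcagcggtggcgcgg
Scg2: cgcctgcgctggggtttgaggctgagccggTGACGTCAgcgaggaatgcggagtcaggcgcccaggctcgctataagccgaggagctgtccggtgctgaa
The Vgf stretch is chr12:25277041-25277140 and the Scg2 stretch chr9:88256920-88257019, both on the minus strand of GRCr8. A match of letters is a description of the sequence and says nothing of whether a factor binds there.

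Across the 12 arrays the features most like each of the 3 genes were found among 10088 others with a gene symbol, as a description, since both genotypes enter it. Ptprn and Septin5 were in each other's list, with a Pearson correlation of 0.945 over 12 arrays and 0.824 over the 7 KO arrays. Both were chosen for their difference between the genotypes. Both also had KO 1 to KO 4 above KO 5 to KO 7, as 17.2% of all features did, so nothing is read from their likeness. Closest to Ptprn was Hba-a1, an alpha-globin gene (0.949 over 12 arrays and 0.928 over the 7 KO arrays), followed by Psma1, of the proteasome core (0.947), and Abcf3 (0.945). Closest to Septin5 was Ptprn, followed by Mms19, of cytosolic iron-sulphur assembly (0.940), Psma1 (0.918) and Abcf3 (0.908).

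Closest to Npy was Eprs1, the glutamyl-prolyl-tRNA synthetase gene, at 0.944 over 12 arrays. It was followed by Pck2, the mitochondrial phosphoenolpyruvate carboxykinase gene (0.934), Gpat3, of glycerolipid synthesis (0.920), and Afg2a (0.917). Over the 7 KO arrays alone these 4 correlations were lower, at 0.689, 0.691, 0.694 and 0.288, so much of the likeness to Npy lay in the difference between the genotypes. Eprs1 averaged 2.28 in the KO and 2.97 in the WT, and Pck2 1.18 in the KO and 1.67 in the WT, relative to the 75th percentile.

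Vgf had likenesses of another kind, looked at after its split within the KO was seen. Among its 4 closest genes were Sec23b and Sec31a, which encode parts of the COPII coat that carries secretory cargo out of the endoplasmic reticulum, at 0.929 and 0.919 over 12 arrays. Over the 7 KO arrays these correlations were 0.981 and 0.954. Neither Sec23b nor Sec31a differed much between the genotypes, with log2 differences of 0.12 and -0.047. The other 2 were Mospd1 (0.937) and Prkci (0.918). These correlations share the arrays and the split by sample number, which 37.1% of all features showed within the KO.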

How the data were processed

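Per the labels' protocols, Trizol RNA of the 12 cultures was hybridised as Cy3 cRNA to 1-colour Agilent arrays. The submitters' processing notes list Feature Extraction 10.7 as the image software; version 10.1.1.1 stands in the headers. Per the file headers, what the authors deposited for each array is linear spot intensity, with other columns of yes-or-no flags. The deposited value table holds log2 values alike in their sorted order on every array, which the sample titles call quantile normalized, and was used as an alternative. Here spots that the software marked as non-uniform or as outliers among their copies were dropped, spots of a probe were averaged as log2 processed signal, and the array's 75th percentile was subtracted. The probe with the highest mean stood for a gene, and features well above background on at least 5 of 12 arrays were tested with limma 3.58.1 in R 4.3.3 (no covariate, two-sided, Benjamini-Hochberg). The fit was also run on simulated data with known changes. Noise there was independent between arrays, so that run does not cover splits by slide or sample number. Symbols come from RefSeq's rat gene table where a probe matched it. The number of arrays limits the precision. The members and lists were chosen with earlier results of these data known. All members were named, and from each list up to 4 called genes or, with none called, the tested gene with the smallest p; other list genes in the text were chosen after their values were seen. Like features were the 4 with the highest Pearson correlation. Septin14 and Insm1 were not analysed here, and 2 list genes that enter the counts are not reported here by name. The labels do not say whether cultures of both genotypes with the same sample number were paired. Correlations of same-numbered deviations were 0.46, -0.11, 0.073 and 0.050 for numbers 3, 5, 6 and 7, too few to settle it. Alternatives covered slide, sample number, background correction, normalization, filter, probe choice and each array left out.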

Additional observations from a re-analysis of the deposited data

Results flagged for a closer look

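In 1 of the 34 groups of values examined, a culture stood far from the others of its group. The level of Pam, the peptide-amidating enzyme gene, was -0.099 on WT 5, with the next highest WT array at -0.32, a gap of 0.766 of the range of the 5 WT arrays. Chance alone gives such a gap in about 1 group in 20.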

How the results depend on the processing

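Npy, Ptprn and Septin5 were chosen for their differences, so a direction or call that was kept shows no stability. The log2 difference of Npy ran from -2.15 to -0.69, that of Ptprn from 0.48 to 1.75 and that of Septin5 from 0.25 to 1.86. The smallest of each came from normexp, whose offset of 50 shrinks differences most at dim probes. All 3 lost their call within slides 1 and 3, with the replicate number as a block, with normexp and without the filter on dim probes, Npy and Ptprn also in sample numbers 1 to 4, and Ptprn and Septin5 in 5 to 8. These 3 genes could not be fitted under the filter for all 12 arrays. Without any 1 array Npy ran from -1.73 to -1.55. Ptprn lost its call without KO 2, KO 3, WT 5, WT 6, WT 7 or WT 8 (1.24 to 1.45), and Septin5 without KO 1, KO 2, KO 3, KO 7, WT 5, WT 6, WT 7 or WT 8 (1.11 to 1.28). The Cpe difference, near background and -1.07 over all arrays, was -1.64 within slide 2, -0.47 in numbers 1 to 4 alone and -0.28 with normexp. Slide 2 and numbers 1 to 4 each hold 1 WT array, assumed to vary like the KO arrays beside it. Over all features limma called 103 higher and 58 lower in the main setting. With slide as a block it called 253 and 151, with the number range as a block 446 and 303, within slide 2 1062 and 924, with sample numbers 5 to 8 only 332 and 345, with 1 to 4 only 42 and 5, with normexp 16 and 9, and under the filter for all 12 arrays 182 and 109. The higher calls were 56 with quantile normalization and 53 with the deposited table. Limma called 0 and 0 within slide 1 (1754 at unadjusted p under 0.05), within slide 3 (783) and without the filter (1981). With the replicate number as a block it called 0 and 0 (1534 at unadjusted p under 0.05). Without any 1 array the calls ran from 9 to 383 higher and from 3 to 268 lower, with the highest counts without WT 3. Signal near background limits Chga, Cpe and every probe dimmer than these.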
